A study of Mus musculus with 10 samples.

Results

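The 10 genes described here encode hydroxysteroid dehydrogenases and steroid reductases of the liver, and they were chosen by name: Hsd3b2, Hsd3b3, Hsd3b5, Hsd3b7, Srd5a1, Hsd11b1, Akr1c6, Akr1d1, Hsd17b2 and Hsd17b6. They are 10 of the 43629 genes in the count table, and all 10 were among the 14143 genes that passed the filter on low counts. Their RNA was measured by RNA-seq in livers of male KL mice (Lkb1 f/f, backcrossed to FVB), in which lung tumours were induced in adult animals by intranasal adenovirus that carries Cre recombinase under the CMV promoter. Both groups had the same genotype, received the virus and bore tumours, so the comparison is between tumour-bearing mice with cachexia (CACS, n = 5) and without it (NCACS, n = 5), and no tumour-free liver is part of it. The groups were defined by loss of body weight, and the NCACS mice had changed by between -14 and -3% and the CACS mice by between -33 and -29%.

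Steroid hormones that reach the liver from the adrenal gland and the gonads are inactivated or reactivated there by small changes at a few carbon atoms. Hydroxysteroid dehydrogenases convert hydroxyl groups to ketones or back, which switches a steroid between active and inactive forms, whereas the 5-alpha and 5-beta reductases saturate the first ring and start the breakdown of androgens, glucocorticoids and progestins. Several of the same enzymes also act on cholesterol derivatives on the way to bile acids, and in mouse liver some differ in level between males and females under the control of the pattern of growth hormone release.

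Total counts per liver were between 31459179 and 40746178. The member with the fewest reads in a liver was Hsd3b5, with 865 counts in CACS mouse 20, so counting error was small for every member next to the spread between mice. The hepatocyte list had summed levels of 72891 to 122589 CPM (counts scaled to the library size and expressed per 1e+06 reads) in NCACS and 113952 to 141425 CPM in CACS livers. Most of this sum was Alb, at 45741 to 88873 CPM in NCACS and 82140 to 107320 CPM in CACS livers. Of the 9 hepatocyte markers, 5 had log2 fold changes above 0 and 4 below. Steroidogenic enzymes are also made in adrenal cortex and kidney. Of 6 adrenal cortex markers, Cyp11b1 had 0 counts in every liver, Nr5a1 at most 1, and Cyp11a1 and Mc2r at most 2, but Star had 56 to 178 counts and Cyp21a1 14 to 825, with log2 fold changes of 0.45 and 0.99 that did not pass (edgeR adjusted p = 0.349 and 0.485). Of the kidney markers, none was tested, Slc12a1 had 0 counts in every liver, and Kap had 6, 12 and 7 counts in NCACS mice 11, 12 and 13 and 0 elsewhere.

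The Hsd3b genes lie in a row on the reverse strand of chromosome 3 (GRCm38), and their sequences are shown first because reads from such copies can be hard to tell apart. Hsd3b5 lies at 98618634 to 98630252, Hsd3b2 at 98709255 to 98724543 and Hsd3b3 at 98741523 to 98763127, between Hsd3b4 on one side and Hsd3b6 and Hsd3b1 on the other. The first 60 coding bases of the 3 members, from the start codon on, each fall in 1 exon, at chr3:98630139-98630198 for Hsd3b5, chr3:98716501-98716560 for Hsd3b2 and chr3:98753396-98753455 for Hsd3b3 (reverse strand, from the GENCODE M21 transcripts). Capitals mark bases that differ from Hsd3b5, 7 in Hsd3b2 and 6 in Hsd3b3.
Hsd3b5: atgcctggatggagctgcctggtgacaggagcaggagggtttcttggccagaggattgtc
Hsd3b2: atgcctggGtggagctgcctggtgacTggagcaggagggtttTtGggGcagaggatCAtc
Hsd3b3: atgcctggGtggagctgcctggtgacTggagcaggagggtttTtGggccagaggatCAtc

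Over the whole coding sequence of 1119 bases (stop codon left out), Hsd3b2 and Hsd3b3 were 95.1% identical, whereas Hsd3b5 was 79.9% identical to Hsd3b2 and 79.5% to Hsd3b3. Among the cluster genes with an Hsd3b symbol, the closest copy of Hsd3b5 was Hsd3b4 at 95.2%, and Hsd3b4 had 0 counts in every liver. At the length of the reads, 100 bases, 7.79% of the windows of the Hsd3b5 transcript, 7.60% of those of Hsd3b2 and 3.31% of those of Hsd3b3 also occurred, letter for letter, in a gene elsewhere in the table. Among the other members, only Hsd17b6 had such windows (8.77%, shared with Rdh genes). Genes that overlap a member at its own locus are not in these shares, and for Hsd3b7 72.0% of windows lay in such overlaps. The remaining genes of the chromosome 3 cluster with an Hsd3b symbol were nearly silent, with at most 13 counts for Hsd3b6 and at most 5 for Hsd3b1. Gm10681 and Gm4450 also shared windows with Hsd3b5 (113 and 46 of 1450), and their counts were not read. The listed Hsd3b8 and Hsd3b9 matched no row of the count table.

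**Figure D1:**
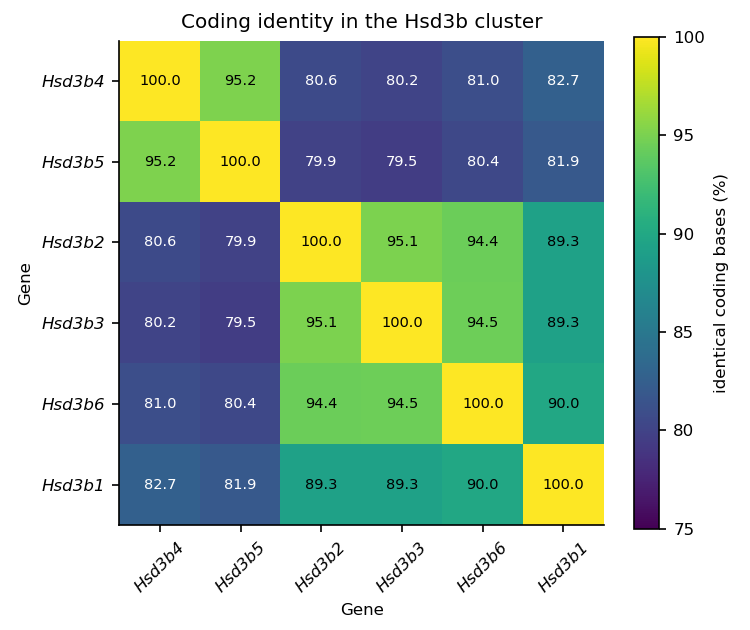
Identity of coding sequences between the 6 Hsd3b genes of the chromosome 3 cluster, as the percent of identical bases over 1119 positions, with genes in their order along the chromosome on both axes. Hsd3b4 and Hsd3b5 form one close pair (95.2%), and Hsd3b2, Hsd3b3 and Hsd3b6 a close group (94.4 to 95.1%).

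Levels of different genes were compared per kilobase of merged exons, as CPM per kilobase. In NCACS livers Akr1c6 stood first with 603 ± 92.3 CPM per kilobase (SD, n = 5), and its lowest NCACS liver (479) was above the highest of the next gene. Hsd3b7 (225 ± 46.2), Hsd11b1 (180 ± 41.1) and Hsd17b6 (156 ± 54.9) followed with overlapping ranges. Hsd3b5 had 110 ± 16.6, Hsd17b2 69.5 ± 13.6, Akr1d1 54.2 ± 7.06, Hsd3b2 49.4 ± 8.88, Hsd3b3 41.5 ± 4.57 and Srd5a1 38.9 ± 5.80 CPM per kilobase (SD, n = 5 each), and each of these ranges overlapped that of its neighbour in the order. All 10 were abundant, since 92.7% of the tested genes with a known length had a lower mean per kilobase in NCACS livers than Srd5a1, the lowest of them. The merged exons of Hsd3b3 span 6396 bases over all its annotated transcripts, and its place in this order depends on that length, since by CPM it was above Hsd3b2 and Hsd3b5 in every liver. In CACS livers Hsd3b7 stood at 123 ± 32.6 CPM per kilobase (SD, n = 5), after Akr1c6 (442 ± 125), Hsd11b1 (208 ± 31.6) and Hsd17b6 (184 ± 64.6).

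**Figure D2:**
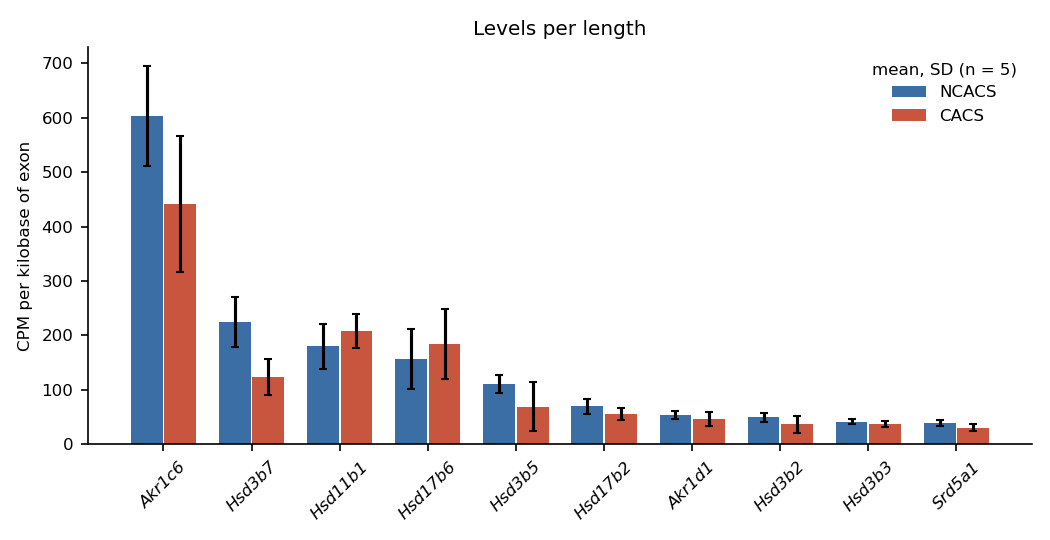
Mean level of each gene in CPM per kilobase of merged exons (vertical axis, from 0), with bars for NCACS and CACS livers and SD over 5 livers as error bars, ordered by the NCACS mean. Akr1c6 is the highest in both groups, and Hsd3b7 drops from 225 to 123.

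Of the 10 enzymes, 1 passed the threshold (adjusted p under 0.05 over all 14143 genes) between CACS and NCACS livers, the bile acid enzyme gene Hsd3b7, which was lower in CACS livers. Over all tested genes 3.8% passed, with 1.92% of all genes lower and 1.89% higher, and 1 call among 10 genes is not set apart from that share. The log2 fold change was below 0 for 8 members and above 0 for Hsd11b1 and Hsd17b6, with a median of -0.35 against -0.0053 over all tested genes, of which 50.6% were below 0. An unadjusted p under 0.05 was found for 3 members, Hsd3b7, Akr1c6 and Srd5a1, all lower, where 21.6% of all genes had one and 10.3% of all genes had one and were lower. In whole liver tissue, fewer hepatocytes and less RNA per hepatocyte cannot be told apart.

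**Figure D3:**
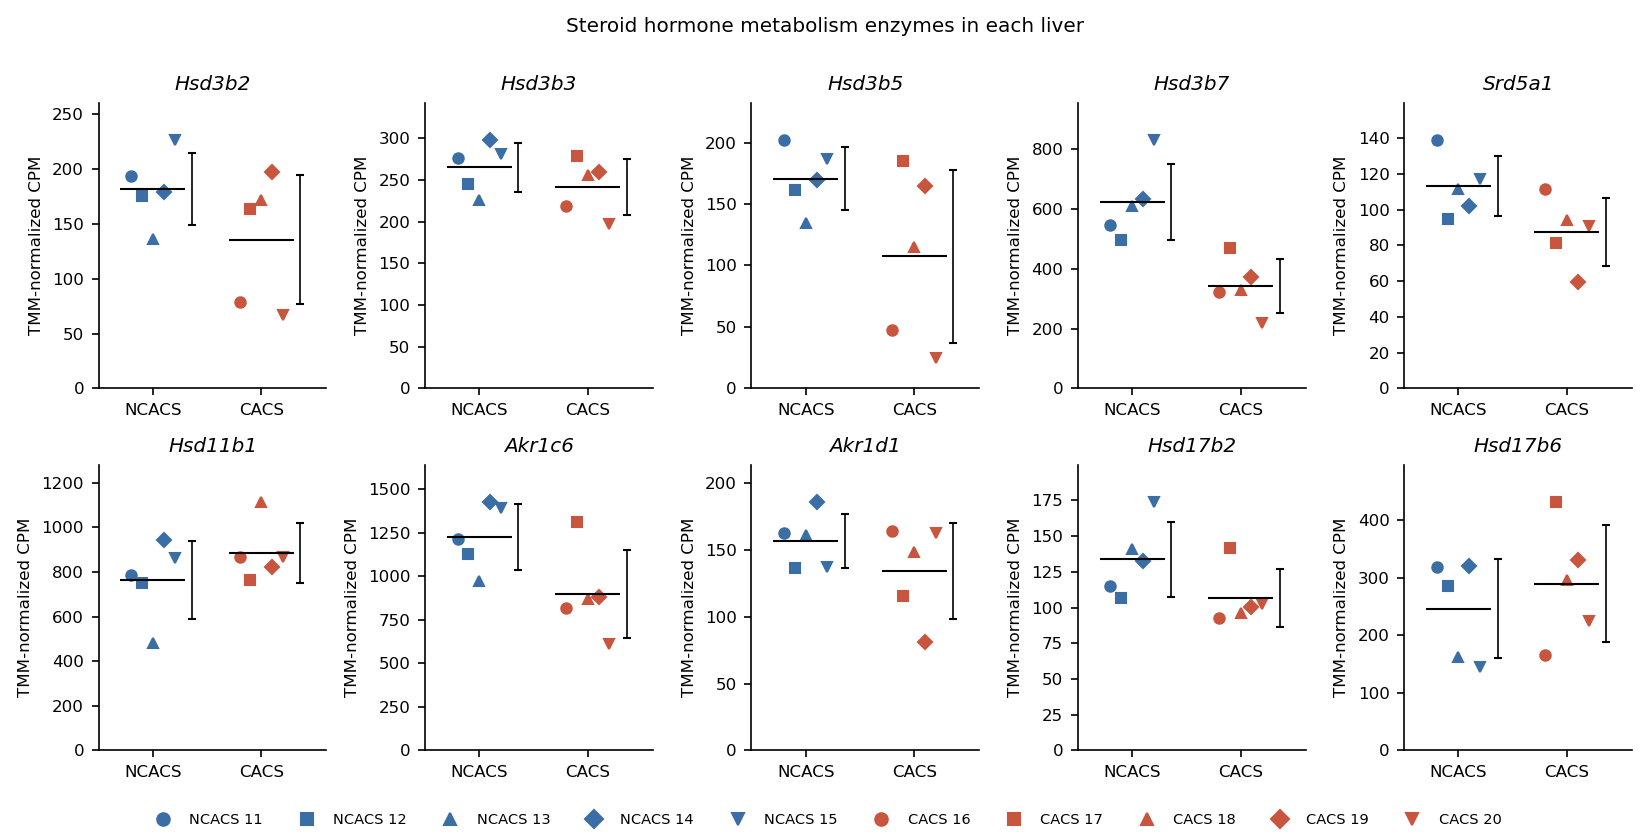
TMM-normalized CPM of each enzyme gene (vertical axes, from 0) in the 5 NCACS (blue) and 5 CACS (red) livers, with a symbol for each mouse, a line at the group mean and a bar of 1 SD on either side. The groups are separate for Hsd3b7, and CACS mice 16 and 20 lie well below the other CACS mice for Hsd3b2 and Hsd3b5.

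Hsd3b7 (ENSMUSG00000042289, chromosome 7, 127800604 to 127803802, forward strand) encodes the 3-beta-hydroxysteroid dehydrogenase that acts on 7-alpha-hydroxylated sterols, an early step of bile acid synthesis rather than of hormone metabolism. Its level was 546, 495, 611, 633 and 830 CPM in NCACS mice 11 to 15, and 321, 468, 328, 372 and 219 CPM in CACS mice 16 to 20. The groups did not overlap, which held for 7.07% of all tested genes and, in the lower direction, for 3.13%. The mean fell from 623 ± 128 CPM (SD, n = 5) in NCACS to 342 ± 90.4 CPM (SD, n = 5) in CACS livers, a ratio of 0.548. The log2 fold change was -0.87 (standard error 0.199, 95% interval -1.30 to -0.43, Benjamini-Hochberg adjusted p = 0.0375 in the quasi-likelihood test of edgeR). A two-sided exact permutation test gave p = 0.00794, the smallest that 5 against 5 livers allow. The call was kept in only 2 of the 10 fits that each left out a mouse, those without NCACS mouse 12 or CACS mouse 17. In the other 8 the adjusted p from edgeR reached up to 0.0817 (without CACS mouse 16), while the log2 fold change stayed between -0.91 and -0.74. Without NCACS mouse 15, the highest liver, it was -0.74 (adjusted p = 0.0719 from the same edgeR test).

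The 250 bases before the RefSeq start site of Hsd3b7 (chr7:127800359-127800608, GRCm38.p6, forward strand) are shown because it is the member that passed the test. Capitals mark the single match to TTCNNNGAA, the spaced palindrome that STAT factors bind, which begins 21 bases before the start site. TTCNNNGAA occurs in 8.30% of all RefSeq promoter windows of 300 bases, and the match is a description of letters, not of binding.
Hsd3b7: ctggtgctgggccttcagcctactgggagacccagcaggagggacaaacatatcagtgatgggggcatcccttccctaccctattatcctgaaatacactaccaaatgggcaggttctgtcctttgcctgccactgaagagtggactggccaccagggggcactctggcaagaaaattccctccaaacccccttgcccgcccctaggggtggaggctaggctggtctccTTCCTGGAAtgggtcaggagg

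Besides TTCNNNGAA, the windows were searched on both strands for the full glucocorticoid response element palindrome (0.00913% of all windows) and CAAAGTCCA, of the type that HNF4A binds (0.475%). Of the 9 members in the promoter table (Hsd17b2 was not matched), only Hsd3b3 held another match, a CAAAGTCCA just after its start site. In the annotation the exons of Hsd3b7 overlap the genes Gm49388 on the same strand and 9430064I24Rik on the opposite strand, neither of which is a row of the count table. How reads in these overlaps were counted is not known, because the strand setting is not given. The 3 tested genes outside the members whose profile over the 10 livers lay nearest to that of Hsd3b7 were Adh4, Sesn3 and Lgals9, with a mean absolute difference of 0.142, 0.146 and 0.150 in log2 CPM after centring each gene on its own mean. Adh4 encodes an alcohol dehydrogenase, Sesn3 a sestrin and Lgals9 a galectin.

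Hsd3b5 (ENSMUSG00000038092) encodes a 3-ketosteroid reductase of mouse liver that is known as strongly male-biased, and it showed the widest spread among CACS livers. Its level was 202, 161, 134, 170 and 186 CPM in NCACS mice 11 to 15, and 47.1, 185, 115, 165 and 24.8 CPM in CACS mice 16 to 20. CACS mice 17 and 19 lay within the NCACS range, CACS mouse 18 just below it, and CACS mice 16 and 20 far below it. The SD of log2 CPM was 0.22 in NCACS and 1.25 in CACS livers, and 0.212% of tested genes had a larger difference between these SDs. The log2 fold change of the groups was -0.67 (standard error 0.436, 95% interval -1.62 to 0.28, edgeR adjusted p = 0.399), which did not pass, and it moved from -0.95 without CACS mouse 17 to -0.42 without CACS mouse 20.

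Hsd3b2 (ENSMUSG00000063730), a 3-beta-hydroxysteroid dehydrogenase, had the same 2 low livers. Its level was 194, 176, 136, 179 and 227 CPM in NCACS mice 11 to 15, and 78.7, 164, 172, 197 and 66.8 CPM in CACS mice 16 to 20. Apart from mice 16 and 20, every CACS liver lay within the NCACS range, and the log2 fold change was -0.43 (standard error 0.282, 95% interval -1.04 to 0.19, adjusted p = 0.407 from edgeR). Hsd3b3 (ENSMUSG00000062410), its nearest relative by sequence among the members, varied little. Its level was between 226 and 298 CPM in NCACS livers and between 197 and 279 CPM in CACS livers, again lowest in CACS mice 20 and 16 (197 and 219 CPM), with a log2 fold change of -0.13 (95% interval -0.40 to 0.13, adjusted p = 0.568 from edgeR).

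The proportions of the 3 chromosome 3 genes therefore differed between livers. The sizes of these ratios depend on the exon lengths, and by CPM both Hsd3b5 and Hsd3b2 were below Hsd3b3 in every liver, whereas the comparison of a ratio between livers does not depend on length. Per kilobase, Hsd3b5 was between 2.35 and 3.02 times Hsd3b3 in NCACS livers, and 0.889 and 0.520 times in CACS mice 16 and 20, against 2.73, 1.85 and 2.62 times in CACS mice 17, 18 and 19. The ratio of Hsd3b2 to Hsd3b3 was between 1.04 and 1.39 in NCACS livers and 0.623 and 0.588 in CACS mice 16 and 20. When the counts of the 3 genes were summed, which removes any exchange of reads between them, the sum was between 496 and 695 CPM in NCACS livers and was 344, 628, 544, 621 and 288 CPM in CACS mice 16 to 20 (log2 fold change -0.35, standard error 0.217, adjusted p = 0.373 from edgeR).

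The 250 bases before the start sites of Hsd3b5 and Hsd3b2 are given because these genes shared their low livers. They are chr3:98645535-98645784 and chr3:98724544-98724793 (GRCm38.p6, RefSeq, reverse strand), with no capitals because none of the 3 motifs occurred in either window. The RefSeq start of Hsd3b5 lies 15282 bases upstream of the GENCODE start, so its window rests on the RefSeq transcript alone.
Hsd3b5: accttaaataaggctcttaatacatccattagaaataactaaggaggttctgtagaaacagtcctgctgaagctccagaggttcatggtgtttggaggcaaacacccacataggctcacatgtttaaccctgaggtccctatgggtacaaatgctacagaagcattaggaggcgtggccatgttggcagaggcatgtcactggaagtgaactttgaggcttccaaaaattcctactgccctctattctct
Hsd3b2: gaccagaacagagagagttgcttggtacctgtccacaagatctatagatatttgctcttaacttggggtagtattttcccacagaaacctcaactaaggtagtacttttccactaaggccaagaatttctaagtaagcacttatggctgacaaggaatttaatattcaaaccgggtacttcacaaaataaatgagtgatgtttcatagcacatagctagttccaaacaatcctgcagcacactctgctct

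CACS mice 16 and 20 were the 2 lowest of the 10 livers for 5 of the 10 members, Hsd3b2, Hsd3b3, Hsd3b5, Hsd3b7 and Akr1c6, and 3.99% of all tested genes had these same 2 livers lowest. This order was noticed in the values and carries no test. Their weight changes were -32 and -29%, within the range of the other CACS mice. Cux2, a repressor that is known as female-biased in mouse liver, was high in these livers. Cux2 was at most 0.653 CPM in NCACS livers and 30.6, 0.551, 17.3, 0.817 and 53.4 CPM in CACS mice 16 to 20. The CACS mice with the 3 lowest Hsd3b5 levels had the 3 highest Cux2 levels, although Hsd3b5 in CACS mouse 18 was only just below the NCACS range. The same 3 mice were also the highest CACS livers for Esr1 and Nr1i3, so this order is not particular to Cux2. It too was noticed in the values and carries no test. The part of Cux2 in the levels of Hsd3b5 was not tested.

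**Figure D4:**
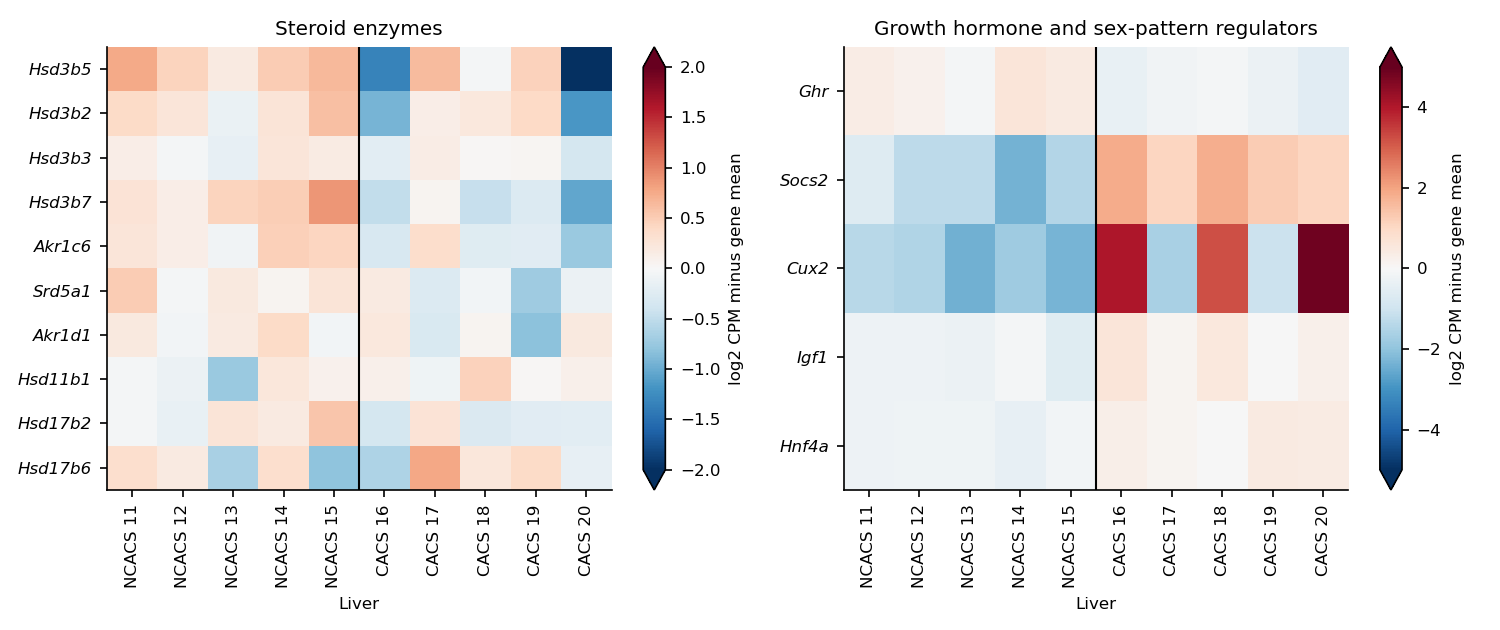
Log2 CPM of each gene minus its mean over the 10 livers (colour, scale beside each panel, with values beyond its ends in the end colour), with livers as columns and a line between NCACS and CACS. The enzymes are on the left, and on the right are those listed regulators of the growth hormone and sex pattern that passed the threshold. CACS mice 16 and 20 are blue for Hsd3b5 and dark red for Cux2. CACS mouse 18 is also red for Cux2 (3.23) but near the gene mean for Hsd3b5 (-0.046).

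The androgen enzyme Akr1c6 (ENSMUSG00000021210, chromosome 13, 4434306 to 4457877), the mouse type 5 17-beta-hydroxysteroid dehydrogenase of the aldo-keto reductase family, was the most abundant member. Its level was 1211, 1125, 975, 1425 and 1392 CPM in NCACS mice 11 to 15, and 820, 1309, 872, 878 and 612 CPM in CACS mice 16 to 20. Of the CACS livers, 4 were below every NCACS liver, and CACS mouse 17 was within the NCACS range. The log2 fold change was -0.45 (standard error 0.192, 95% interval -0.87 to -0.03, unadjusted p = 0.0385 and adjusted p = 0.203 from edgeR), which did not pass the threshold, and it was -0.62 without CACS mouse 17 (adjusted p = 0.0608 from edgeR).

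The dehydrogenases of carbon 17 that work in the oxidative direction did not pass either. Hsd17b2 (chromosome 8, 117701904 to 117759027), which inactivates estradiol and testosterone, was at 115, 106, 141, 133 and 174 CPM in NCACS mice 11 to 15 and at 92.3, 142, 96.1, 101 and 102 CPM in CACS mice 16 to 20. Again CACS mouse 17 was the one CACS liver within the NCACS range, and the log2 fold change was -0.33 (standard error 0.155, 95% interval -0.67 to 0.01, adjusted p = 0.246 from edgeR). Hsd17b6 (chromosome 10, 127990936 to 128007611), which can form dihydrotestosterone from its 3-alpha-reduced metabolite, varied widely within both groups. Its level was 318, 286, 162, 321 and 144 CPM in NCACS mice 11 to 15 and 165, 431, 297, 331 and 226 CPM in CACS mice 16 to 20 (log2 fold change 0.24, 95% interval -0.40 to 0.87, adjusted p = 0.685 from edgeR).

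The 2 reductases of the first ring had log2 fold changes below 0, without passing the threshold. Srd5a1 (chromosome 13, 69573449 to 69611442), the steroid 5-alpha-reductase of liver that makes dihydrotestosterone and also starts the clearance of corticosterone, was at 139, 95, 112, 102 and 117 CPM in NCACS mice 11 to 15. In CACS mice 16 to 20 it was at 111, 81.4, 94.1, 59.6 and 90.8 CPM, and 4 of the 5 were below every NCACS liver. The log2 fold change was -0.37 (standard error 0.158, 95% interval -0.72 to -0.02, unadjusted p = 0.0379 and adjusted p = 0.201 from edgeR). Akr1d1 (chromosome 6, 37530173 to 37568815), the 5-beta-reductase of steroid hormones and bile acid intermediates, was between 137 and 186 CPM in NCACS livers and at 164, 115, 149, 80.9 and 163 CPM in CACS mice 16 to 20 (log2 fold change -0.22, 95% interval -0.62 to 0.18, adjusted p = 0.512 from edgeR). For both reductases the 2 lowest livers were CACS mice 19 and 17, not 16 and 20. Per kilobase, Srd5a1 was 0.725 ± 0.128 times Akr1d1 in NCACS and 0.659 ± 0.0693 times in CACS livers (SD, n = 5 each), so the balance of the 2 reductase transcripts overlapped between groups.

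Hsd11b1 (ENSMUSG00000016194, chromosome 1, 193221634 to 193264075), which regenerates active corticosterone from 11-dehydrocorticosterone inside liver cells, was at 786, 751, 483, 945 and 864 CPM in NCACS mice 11 to 15. In CACS mice 16 to 20 it was at 867, 762, 1113, 820 and 865 CPM. The ranges overlapped, NCACS mouse 13 was the lowest liver, and the log2 fold change was 0.21 (standard error 0.178, 95% interval -0.18 to 0.60, adjusted p = 0.532 from edgeR), falling to 0.08 without that mouse. H6pd, which supplies this enzyme with NADPH inside the endoplasmic reticulum, was lower on average in CACS livers, at 459 ± 81.1 CPM against 634 ± 91.0 CPM (SD, n = 5 per group), without passing the threshold (log2 fold change -0.47 with standard error 0.152, edgeR adjusted p = 0.106). The opposing dehydrogenase gene Hsd11b2 had at most 1 count in any liver.

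**Figure D5:**
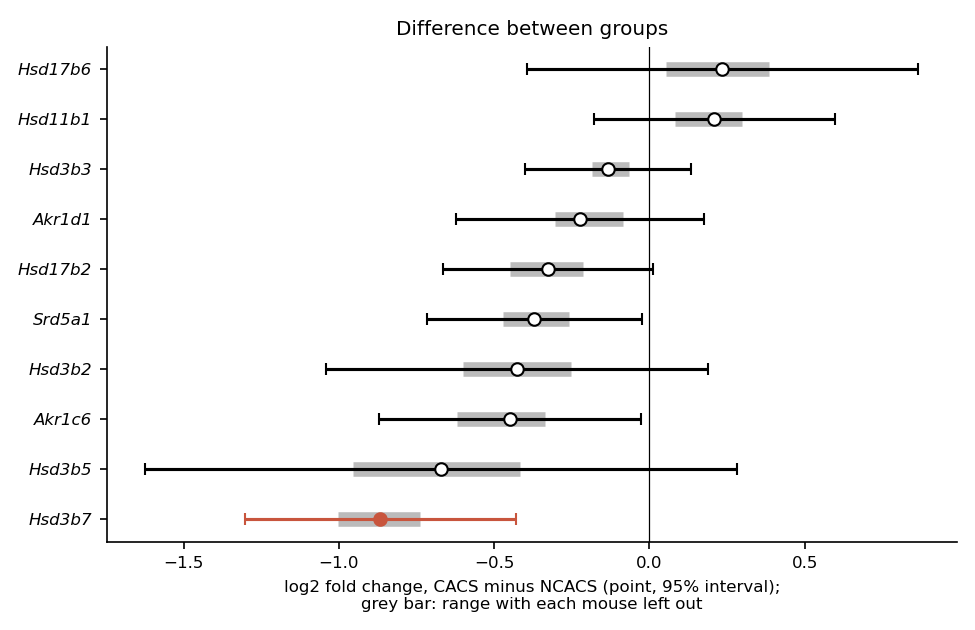
Log2 fold change of each enzyme gene, CACS minus NCACS (horizontal axis), as a point with its 95% interval from edgeR's quasi-likelihood fit, and a grey bar for the range when each mouse is left out. Hsd3b7, filled in red, is the single gene past the threshold, and the intervals of 7 of the other 9 include 0.

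The remaining steroid enzymes were read from a list of 40 further genes, of which 36 were in the table and 24 were tested. None was higher and 3 were lower in CACS livers at the threshold, where 1.92% of all tested genes were lower. The log2 fold change was above 0 for 13 and below 0 for 11, with a median of 0.03. Srd5a2, the second 5-alpha-reductase, was at a low level and lower in CACS livers (2.02 ± 0.176 against 0.963 ± 0.359 CPM, SD, n = 5 each, log2 fold change -1.07, adjusted p = 0.0385 from edgeR), which held in 1 of the 10 fits with a mouse removed. Hsd17b12, known for the elongation of fatty acids, fell from 160 ± 22.7 to 93.6 ± 14.2 CPM (SD, n = 5 each, log2 fold change -0.77, adjusted p = 0.0132 from edgeR) and passed in all 10 of those fits. Hsd17b7, known for cholesterol synthesis, fell from 69.6 ± 9.52 to 42.4 ± 9.50 CPM (SD, n = 5 each, log2 fold change -0.71, adjusted p = 0.0291 from edgeR) and passed in 4 of them. The last 2 carry the name of the hormone dehydrogenases but act mainly on lipids. Among the cytochromes P450 that make steroids, Cyp19a1, Cyp11b1 and Cyp11b2 had 0 counts in every liver and Cyp11a1 no more than 2. Cyp17a1, the 17-alpha-hydroxylase, was present at 0.498 to 4.27 CPM in NCACS livers and at 26.9, 7.69, 2.15, 7.24 and 4.32 CPM in CACS mice 16 to 20 (log2 fold change 2.61, standard error 0.762, unadjusted p = 0.00523 and adjusted p = 0.0777 from edgeR). The groups overlapped and it did not pass. Cyp21a1, the 21-hydroxylase, was at 0.432 to 11.9 CPM in NCACS and 3.75 to 23.2 CPM in CACS livers.

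Markers of other cells moved with the groups in part. Over all tested genes, 3.8% passed the threshold and 21.6% had an unadjusted p under 0.05. Of 8 Kupffer cell and macrophage markers all had log2 fold changes below 0 (median -0.76) and 1, Cd5l, passed, with summed levels of 175 to 304 CPM in NCACS and 110 to 220 CPM in CACS livers. For 7 endothelial markers (168 to 248 against 204 to 272 CPM) and 8 stellate markers (151 to 260 against 163 to 254 CPM) none passed. Of the endothelial markers 6 were above 0, and none (0) had an unadjusted p under 0.05. Of the stellate markers 4 were above and 4 below 0, and 2 had an unadjusted p under 0.05 from edgeR, Col1a1 and Col3a1 (log2 fold change -1.27 and -0.96). Of 3 tested neutrophil markers all were below 0 with an unadjusted p under 0.05 (median log2 fold change -1.66, sums of 3.91 to 18.5 against 2.12 to 5.82 CPM), and of 7 lymphocyte markers 6 were below 0 and 4 had such a p (median -0.68, 10 to 22.3 against 7.0 to 13.6 CPM), with none past the threshold. Of 5 tested cholangiocyte markers 4 were below 0 and none passed (33.6 to 52.7 against 20.3 to 49.4 CPM). Of 3 tested lung epithelium markers, the surfactant gene Sftpa1 passed as higher, at 1.26 to 1.54 CPM in NCACS and 1.72 to 5.65 CPM in CACS livers (log2 fold change 1.27, edgeR adjusted p = 0.0323). It also passed in 3 of the 10 fits with a mouse removed. Sftpc and Scgb1a1 did not pass and differed in direction (log2 fold change 0.44 and -0.97, edgeR adjusted p = 0.836 and 0.670). Among 9 hepatocyte markers none passed and the median log2 fold change was 0.13. The part of these cells in the lower level of Hsd3b7 was not tested.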

How the data were processed

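RNA-seq was read in 10 livers, 5 of each group. The authors made stranded poly(A) libraries, sequenced single-end reads, aligned them to GRCm38 with STAR 2.4.1d, counted reads per gene with HTSeq 0.6.1 and deposited raw counts without normalization. The annotation release and strand setting are not given in the sources used here, and reads that match more than 1 place could have been dropped. Groups and mouse numbers came from the sample labels. No column was left out (0 columns). Symbols, exons and gene positions came from GENCODE M21, which lacked 1081 of the 43629 identifiers, and promoter sequences from RefSeq on GRCm38.p6.

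Low-count genes were removed from the deposited counts (filterByExpr), library sizes were scaled by TMM, and groups were compared by the quasi-likelihood method of edgeR 4.0.16 in R 4.3.3, with Benjamini-Hochberg adjustment over all tested genes and a threshold of 0.05. Log2 CPM used a prior count of 2. Exact permutation tests of mean log2 CPM ran over every assignment of 5 against 5 livers. DESeq2 1.42.0, limma-voom (limma 3.58.1), other normalizations and filters and leaving out each mouse were alternatives. The scripts were tested on simulated data. No 2 livers of a group were duplicates (smallest chi-square per degree of freedom 46.1). The labels name no batch, and the study's batch correction spans libraries not analysed here.

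The members and gene lists were chosen with earlier results of these data known. Named genes were the 10 members, listed pathway genes past the threshold, and for members past the threshold the 3 genes with the nearest profile. H6pd, Hsd11b2, Por, Esr1, Nr3c1, Nr1i2, Nr1i3, the steroidogenic P450 genes and the list members named for their markers were picked with their values already seen. Each library is a separate mouse. Some genes and alleles are not reported here.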

Additional observations from a re-analysis of the deposited data

Results flagged for a closer look

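In 44 combinations of a gene and a group of 5 livers, 1 liver stood apart by Dixon's 95% criterion, Hsd17b2 in CACS mouse 17 (gap over range 0.765 in log2 CPM). That liver had 142 CPM, where the other CACS livers were between 92.3 and 102 CPM. Chance flags about 1 in 20 such groups. Without CACS mouse 17 the log2 fold change of Hsd17b2 was -0.45, against -0.33 with it.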

How the results depend on the processing

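No paired analysis was possible because NCACS and CACS mice carry different numbers. The number of genes past the threshold was 538 with edgeR, 1376 with DESeq2, and 178 (without NCACS mouse 11) to 519 (without CACS mouse 17) when each mouse was left out. Of the 10 members, 1 passed, and none (0) with raw library totals, where the edgeR adjusted p of Hsd3b7 was 0.0531 (log2 fold change -0.84). With each mouse left out the number was between 0 and 1. With the remaining tests, normalizations and filters Hsd3b7 was the 1 member past the threshold, with adjusted p between 0.00105 (DESeq2) and 0.0384 (limma-voom). Among other steroid enzymes 3 passed with edgeR, 5 with DESeq2 and 1 to 2 with a mouse left out. The cause of these shifts was not tested, except that fits without a mouse have fewer samples. The other 9 members held the same sign and did not pass in any alternative that was run, and summing the Hsd3b counts changed neither.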

Other observations

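Receptors and regulators of these enzymes were also read in the 10 livers. Of 7 steroid and xenobiotic receptors, 6 were tested and none (0) passed with edgeR, while 4 had an unadjusted p under 0.05. Over all tested genes 21.6% had such a p. Esr1, the estrogen receptor alpha, did not pass (log2 fold change 0.80, edgeR adjusted p = 0.213) and was at 50.7, 11, 38, 16.1 and 37.9 CPM in CACS mice 16 to 20, against 13.6 to 20.9 CPM in NCACS livers. CACS mice 16, 18 and 20, with the highest Esr1, were those with the lowest Hsd3b5 among CACS livers. They also had the highest Nr1i3 among CACS livers (133, 127 and 125 CPM). The xenobiotic receptors Nr1i2 and Nr1i3 had log2 fold changes of 0.58 and 0.72. Their unadjusted p was smaller than that of Esr1 (0.00738 and 0.0170 against 0.0424 from edgeR). These orders were noticed in the values, and a link with Hsd3b5 was not tested. For the glucocorticoid receptor Nr3c1 the log2 fold change was -0.14 (edgeR adjusted p = 0.538).

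Of 10 growth hormone and sex-pattern regulators, 5 passed, where 3.8% of all tested genes did. The list was chosen with earlier results of these data known. The growth hormone receptor Ghr fell from 582 ± 102 to 377 ± 46.8 CPM (SD, n = 5 each, adjusted p = 0.0388 from edgeR), whereas the STAT5 target Socs2, Igf1, Hnf4a and Cux2 rose, by 2.79, 0.60, 0.50 and 5.44 on the log2 scale (adjusted p = 0.00203, 0.0437, 0.0435 and 0.0298 from edgeR). Of the fits with each mouse removed in turn, Socs2 passed in 10, Cux2 in 3, Ghr in 2, and Igf1 and Hnf4a in 1 each. Among 13 male-biased liver genes that are not members, 12 had log2 fold changes below 0 with a median of -0.86. None (0) passed with edgeR, while 5 had an unadjusted p under 0.05. Over all tested genes 50.6% were below 0 and 21.6% had such a p. Of 10 tested female-biased genes, 1 passed as higher and 1 as lower, with 5 log2 fold changes above and 5 below 0. The lower one was Hao2 (log2 fold change -4.03, edgeR adjusted p = 0.0323), which passed in 3 of the fits with a mouse removed. Hao2 was at a low level, with 2.67, 4.33, 0.420, 5.18 and 0.216 CPM in NCACS mice 11 to 15. In CACS livers it was at most 0.359 CPM, so the groups overlapped. The electron donor Por was at 1207, 317, 756, 754 and 1105 CPM in CACS mice 16 to 20 and between 99.3 and 514 CPM in NCACS livers (log2 fold change 1.27, adjusted p = 0.151 from edgeR).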
